A study of Rattus norvegicus with 24 samples.

Results

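The genes described here are the potassium channel genes of the rat, taken as every gene whose single symbol in the array annotation begins with Kcn and a further letter, from Kcna to Kcnv. The rule found 75 genes among the 14217 named on the array, and these 75 were represented by 126 probe sets. A probe set is a group of short probes against one transcript, and each gene was read from its probe set with the highest mean log2 intensity over all 24 arrays. By symbol, 7 of the genes encode silent voltage-gated subunits (Kcng, Kcns and Kcnv) and 13 encode auxiliary subunits (Kcnab, Kcne, Kcnip and Kcnmb). The other 55 were counted as pore-forming subunits.

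Potassium channels let potassium leave the cell and so set the resting potential, end action potentials and space them in time. Voltage-gated pores (Kcna to Kcnd, Kcnh and Kcnq) open on depolarisation, Kcnma1 and the Kcnn genes answer to calcium, inward rectifiers (Kcnj) and pores with tandem domains (Kcnk) carry resting and receptor-driven currents, and auxiliary subunits change where and how fast the pores work. In vasopressin and oxytocin neurons, A-type, BK and small-conductance channels are known to shape the firing that sets hormone release.

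RNA was measured on Affymetrix rat arrays in the spontaneously hypertensive rat (SHR) and in the Wistar-Kyoto rat (WKY), the related strain with normal blood pressure. The SHR arrays covered the pituitary's neurointermediate lobe (NIL, 5 arrays), the rostral ventrolateral medulla (RVLM, which drives sympathetic outflow, 5 arrays), the paraventricular nucleus (PVN, 5 arrays) and the supraoptic nucleus (SON, 4 arrays), and the WKY arrays covered the RVLM (5 arrays). Each array held RNA pooled from 5 male rats aged 10 to 13 weeks (10 to 12 weeks for 1 NIL array), and the labels give no treatment. Thus n counts pools, and the labels do not say whether the same rats gave several structures. No WKY data from NIL, PVN or SON are used here. Values are the deposited intensity, a linear signal with no fixed unit that is comparable between arrays for 1 probe set and not between probe sets. The sum of a gene list adds the intensities of different probe sets, so its brightest probe sets weigh most and can hide differences in dimmer ones. Means are given ± SD over the pools of a group.

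The magnocellular neuron list (6 genes, among them Avp and Oxt) summed to 474 to 776 in SHR RVLM, against 10940 to 14467 in PVN and 12729 to 15122 in SON. In NIL it summed to 3256 to 4030. The melanotroph list summed to 2869 to 3925 in NIL and to between 166 and 306 on the other SHR arrays. The RVLM catecholamine neuron list (5 genes on the array) summed to 424 to 552 in SHR RVLM, 227 to 502 in PVN and 517 to 631 in SON. The RVLM range thus overlapped both others. Only 2 of its genes passed the filter between structures, 1 higher in RVLM than in the nuclei and 1 lower. In this list Pnmt, which makes adrenaline, was 113 to 251 in SHR RVLM, against 1.92 to 8.36 in PVN and 1.72 to 16.5 in SON. Dbh was 27.5 to 49.6 in SHR RVLM, against 4.36 to 16.4 in PVN and 15.2 to 22.2 in SON, whereas Th was 109 to 140.1 in SHR RVLM, against 149 to 391 in PVN and 425 to 524 in SON. The array labelled PVN replicate 3 (PVN array 3) stood apart. Its median Spearman correlation was 0.916 with the other PVN arrays, whereas those had 0.950 to 0.962 with their own group. With the SON arrays it had 0.939, within the 0.927 to 0.945 of the other PVN arrays. Its sum of meninges and choroid plexus markers was 8676, against 734 to 995 on the other PVN arrays, and counts of members are given with and without it. Without it every member call of the 3 structure contrasts was kept, with log2 differences at 0.838 to 1.3 times their value, and 2 calls were added in RVLM (Kcnd2 and Kcnq5).

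Upstream sequences from RefSeq (build GRCr8) were matched by symbol for 52 of the 75 genes. The following 6 are shown because these genes carry the main results: Kcnd2 and Kcnip3 differed between the strains, Kcnab1 and Kcns3 were among the largest rises in RVLM, and Kcnma1 and Kcnmb4, pore and auxiliary subunit of the BK channel, differed in opposite directions in NIL. Each is the 250 bases before the annotated start, 5′ to 3′ on the gene's strand, at chr4:50742235-50742484 (+) for Kcnd2, chr3:135195411-135195660 (-) for Kcnip3, chr2:151614301-151614550 (+) for Kcnab1, chr6:39584106-39584355 (-) for Kcns3, chr15:351675-351924 (+) for Kcnma1 and chr7:54005102-54005351 (-) for Kcnmb4. Capitals mark GGGCGG (the GC box) or CCAAT on either strand, and overlapping GC boxes in Kcnma1 form 1 longer run.
Kcnd2: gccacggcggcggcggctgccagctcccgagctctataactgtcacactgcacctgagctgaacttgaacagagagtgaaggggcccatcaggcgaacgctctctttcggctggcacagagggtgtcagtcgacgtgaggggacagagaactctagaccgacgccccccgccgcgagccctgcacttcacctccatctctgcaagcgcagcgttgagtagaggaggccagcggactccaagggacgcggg
Kcnip3: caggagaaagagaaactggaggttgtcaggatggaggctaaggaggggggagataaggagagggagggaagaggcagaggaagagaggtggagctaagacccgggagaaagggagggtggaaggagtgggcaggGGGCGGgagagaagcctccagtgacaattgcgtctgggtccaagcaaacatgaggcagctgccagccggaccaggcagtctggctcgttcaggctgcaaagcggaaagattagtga
Kcnab1: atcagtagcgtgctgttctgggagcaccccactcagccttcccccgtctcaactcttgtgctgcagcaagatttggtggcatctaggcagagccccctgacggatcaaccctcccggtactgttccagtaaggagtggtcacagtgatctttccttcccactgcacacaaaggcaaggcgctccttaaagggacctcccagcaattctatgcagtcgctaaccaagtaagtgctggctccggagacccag
Kcns3: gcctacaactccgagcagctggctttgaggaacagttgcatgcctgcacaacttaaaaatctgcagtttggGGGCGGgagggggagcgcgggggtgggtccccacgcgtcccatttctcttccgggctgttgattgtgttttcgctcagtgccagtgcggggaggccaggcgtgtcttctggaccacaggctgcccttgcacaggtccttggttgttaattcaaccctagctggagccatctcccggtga
Kcnma1: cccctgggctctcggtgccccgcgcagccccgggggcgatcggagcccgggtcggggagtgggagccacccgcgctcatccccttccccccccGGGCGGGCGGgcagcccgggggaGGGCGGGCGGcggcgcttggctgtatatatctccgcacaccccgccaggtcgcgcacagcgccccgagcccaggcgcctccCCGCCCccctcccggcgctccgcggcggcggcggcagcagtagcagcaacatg
Kcnmb4: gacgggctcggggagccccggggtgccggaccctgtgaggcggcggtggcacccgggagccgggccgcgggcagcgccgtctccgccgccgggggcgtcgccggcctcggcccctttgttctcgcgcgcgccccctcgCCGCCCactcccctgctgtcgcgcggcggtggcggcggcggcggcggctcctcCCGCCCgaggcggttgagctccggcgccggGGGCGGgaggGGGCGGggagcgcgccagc

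Of the 5 motifs searched on both strands (TATAAA for the TATA box, GGGCGG for the GC box, CCAAT for the CCAAT box, TGACGTCA for the cyclic AMP response element and CACGTG for the E box), the Kcnd2 and Kcnab1 windows held none, the Kcnip3 and Kcns3 windows held 1 GC box each, the Kcnmb4 window held 4 and the Kcnma1 window held 5. Their GC content was 64% for Kcnd2, 58.4% for Kcnip3, 56.0% for Kcnab1, 59.2% for Kcns3, 79.6% for Kcnma1 and 84.4% for Kcnmb4. GGGCGG occurred in 29 of the 52 windows (55.8%), against 30.5% of the 33469 RefSeq windows of the same length. CCAAT occurred in 12 (23.1%), against 34% of all windows. TATAAA occurred in 2 (3.85%), against 12.9%, CACGTG in 2 (3.85%), against 5.59%, and TGACGTCA in 0, against 1.59%. These matches describe letters and were not tested as binding sites.

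The strain comparison asked which potassium channel genes differ in the RVLM between hypertensive and normotensive rats. After low probe sets were left out (mean log2 intensity at or below the 40th percentile), 43 of the 75 genes were tested with limma, and 2 had a p under 0.05 after Benjamini-Hochberg adjustment, which is what a call means throughout. Both were lower in SHR: Kcnd2, which encodes the Kv4.2 pore of the A-type current, and Kcnip3, which encodes KChIP3, a calcium-binding auxiliary subunit of Kv4 channels also known as DREAM. That is 4.65% of the members tested, against 1.41% of all 10400 genes tested. For the lower direction it is 4.65%, against 0.865% of all genes, and for the higher direction 0%, against 0.548%. The median log2 difference was -0.0254 over the members tested and -0.0336 over all genes.

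Kcnd2 intensity was 312, 366, 307, 305 and 294 on the SHR RVLM arrays, against 474, 522, 532, 446 and 485 on the WKY RVLM arrays. Every SHR pool lay below every WKY pool. The means were 317 ± 28.1 in SHR and 492 ± 35.2 in WKY (SD, n = 5 each), a log2 difference of -0.67 (SE 0.0833, adjusted p = 0.000145). The second, dimmer Kcnd2 probe set had 107, 134, 72.3, 92.5 and 103 on the SHR RVLM arrays and 207, 221, 239, 133 and 178 on the WKY RVLM arrays. The highest SHR pool was just above the lowest WKY pool there, so the groups overlapped, and the log2 difference was -0.97 (adjusted p = 0.00102). Both probe sets were thus lower in SHR.

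Kcnip3 intensity was 151, 158, 139, 174 and 197 on the SHR RVLM arrays, against 283, 342, 480.4, 291 and 383 on the WKY RVLM arrays. The groups did not overlap, with means of 164 ± 22.4 in SHR and 356 ± 80.5 in WKY (SD, n = 5 each) and a log2 difference of -1.13 (SE 0.142, adjusted p = 0.000157). The second Kcnip3 probe set was dim and under the filter, with 4.75, 3.18, 6.23, 3.46 and 3.62 in SHR RVLM and 19.0, 32.0, 35.7, 27.1 and 30.5 in WKY RVLM. Each SHR pool was below each WKY pool (adjusted p = 0.000356 without the filter), and no fold is given at such low values. On the 14 SHR arrays of NIL, PVN and SON the same dim probe set lay between 0.747 and 19.5, and only NIL array 4, at 19.5, exceeded the lowest WKY value. The brighter probe set had 206 to 274 in NIL and 139 to 197 in SHR RVLM. Whether the probes match the RNA of both strains equally was not tested for Kcnip3 or Kcnd2.

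**Figure D1:**
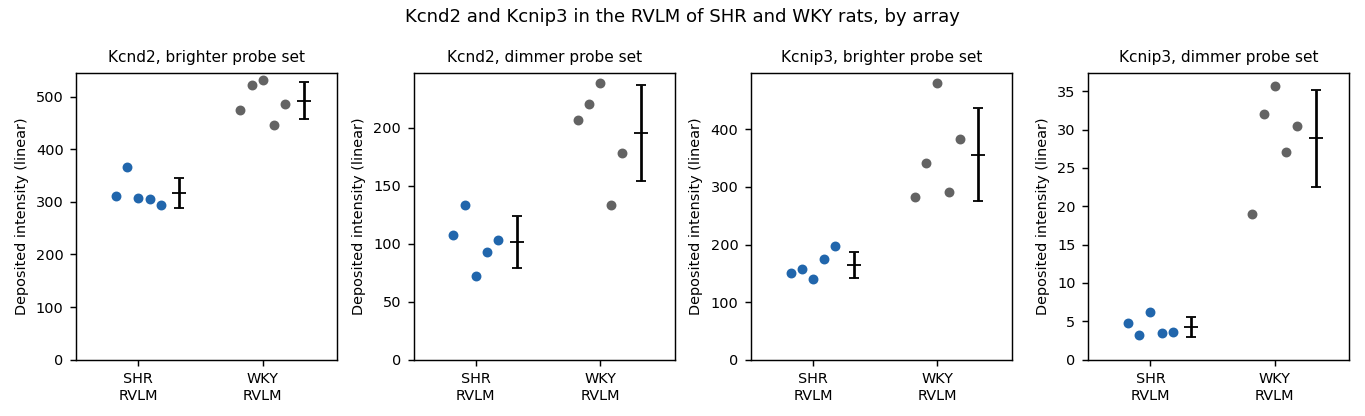
Deposited intensity (linear axis from 0) of the 2 probe sets of Kcnd2 and the 2 of Kcnip3 on each RVLM array; points are pools, and the bar beside them is the mean with 1 SD (n = 5 each). SHR pools sit below WKY pools in every panel except that of the dimmer Kcnd2 probe set, where the highest SHR pool had 134 and the lowest WKY pool 133.

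The products of Kcnd2 and Kcnip3 can assemble in the same channel, and the other genes of that complex were compared as a list chosen with these results known. The list holds 9 genes: the Kv4 pores Kcnd1, Kcnd2 and Kcnd3, the KChIP genes Kcnip1 to Kcnip4, and Dpp6 and Dpp10, which encode membrane-spanning partners of Kv4. All 9 were tested, 2 fell and 7 were not called, with a list median of -0.0484. The other pores differed by -0.03 (Kcnd1, adjusted p = 0.966) and -0.07 (Kcnd3, adjusted p = 0.900), and Dpp6 and Dpp10 by -0.05 and -0.15 (adjusted p = 0.914 and 0.784). Kcnip1 differed by -0.01 and Kcnip4 by -0.02. Kcnip2, which encodes KChIP2, was the list's highest value: it had 45.6, 46.3, 52.1, 63.1 and 51.9 in SHR RVLM, against 38.0, 28.2, 33.5, 40.8 and 27.9 in WKY RVLM, and the difference of 0.60 (SE 0.166, adjusted p = 0.102) was not called although the pools did not overlap.

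Of the 41 members tested and not called, 5 had an unadjusted p under 0.05. Besides Kcnip2 these were Kcnj5, the GIRK4 inward rectifier (0.61, adjusted p = 0.348), Kcna6, the Kv1.6 pore (-0.31, adjusted p = 0.431), Kcnh2, the ERG1 pore (-0.24, adjusted p = 0.394), and Kcnj16, the Kir5.1 subunit (-0.23, adjusted p = 0.488). Apart from Kcnj5 and Kcnip2, every member outside the 2 calls lay between -0.31 and 0.25, as the plot of all tested members shows. Kcna1, Kcnab1 and Kcns3, which separated the RVLM from the hypothalamus, differed between the strains by 0.06, 0.01 and -0.06. In the same limma fit, 0 of 11 pan-neuronal, 0 of 8 astrocyte and 0 of 8 oligodendrocyte markers were called, with 0, 1 and 0 at an unadjusted p under 0.05. Of the meninges and choroid plexus list, 1 of 8 was lower in SHR (Ttr, -1.11, adjusted p = 0.0485), with sums of 2557 to 3998 in SHR and 3170 to 5200 in WKY, and its part in the members' values was not tested. The other sums overlapped between the strains as well: 26629 to 32163 in SHR and 24027 to 29272 in WKY for the pan-neuronal list, and 16561 to 21092 in SHR and 15906 to 23930 in WKY for the oligodendrocyte list. In such bulk RNA, fewer cells of a type and less RNA per cell cannot be told apart, and the match of the probes to each strain was not tested.

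**Figure D2:**
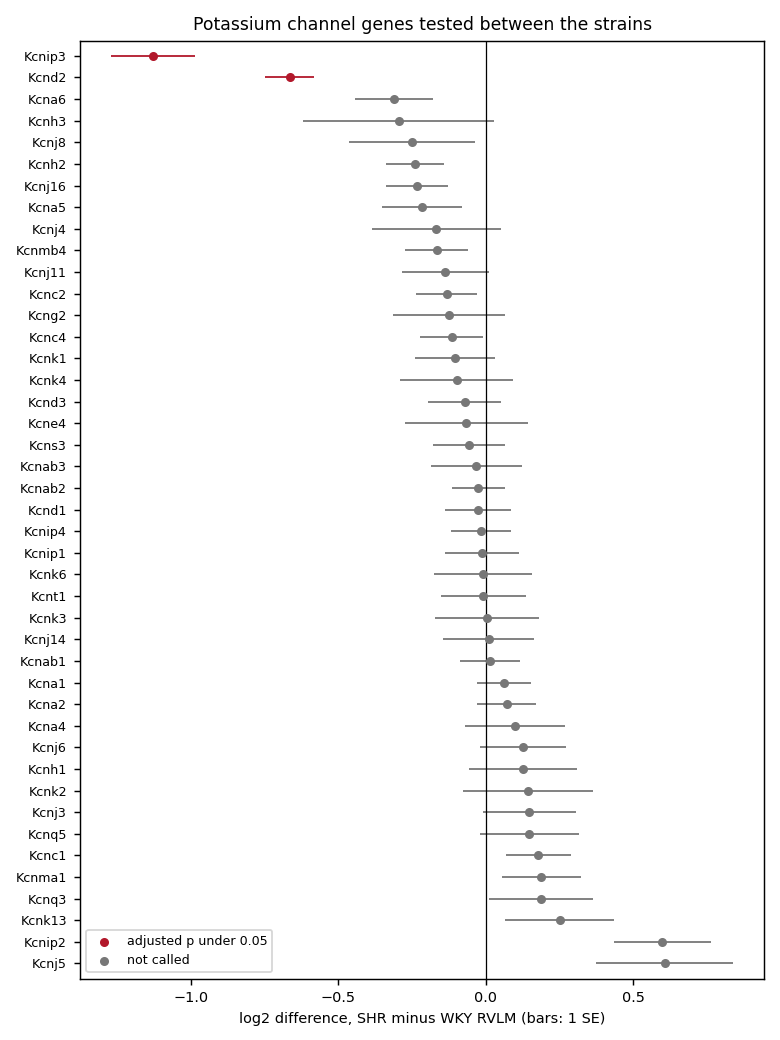
Log2 difference, SHR minus WKY RVLM, of the 43 potassium channel genes tested, ordered by value, with bars of 1 SE; red marks an adjusted p under 0.05. Kcnip3 at -1.13 and Kcnd2 at -0.67 lie apart on the left, and Kcnip2 at 0.60 and Kcnj5 at 0.61 on the right without being called.

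Between the 4 SHR structures, 40 of the 75 genes were tested, and 38 of them (95%) differed in the moderated F test of limma, against 80.0% of all 10596 genes tested, and 38 again without PVN array 3, against 82.3%. The 2 that did not pass were Kcne4, an auxiliary subunit, and Kcnk6, a pore with tandem domains. NIL and RVLM were each set against the mean of PVN and SON, so these contrasts share their hypothalamic arrays and are given side by side with no comparison between them. The share of all genes called was 58.9% in the NIL contrast, 50.6% in the RVLM contrast and 16.1% in PVN minus SON, and counts of members are read against these.

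**Figure D3:**
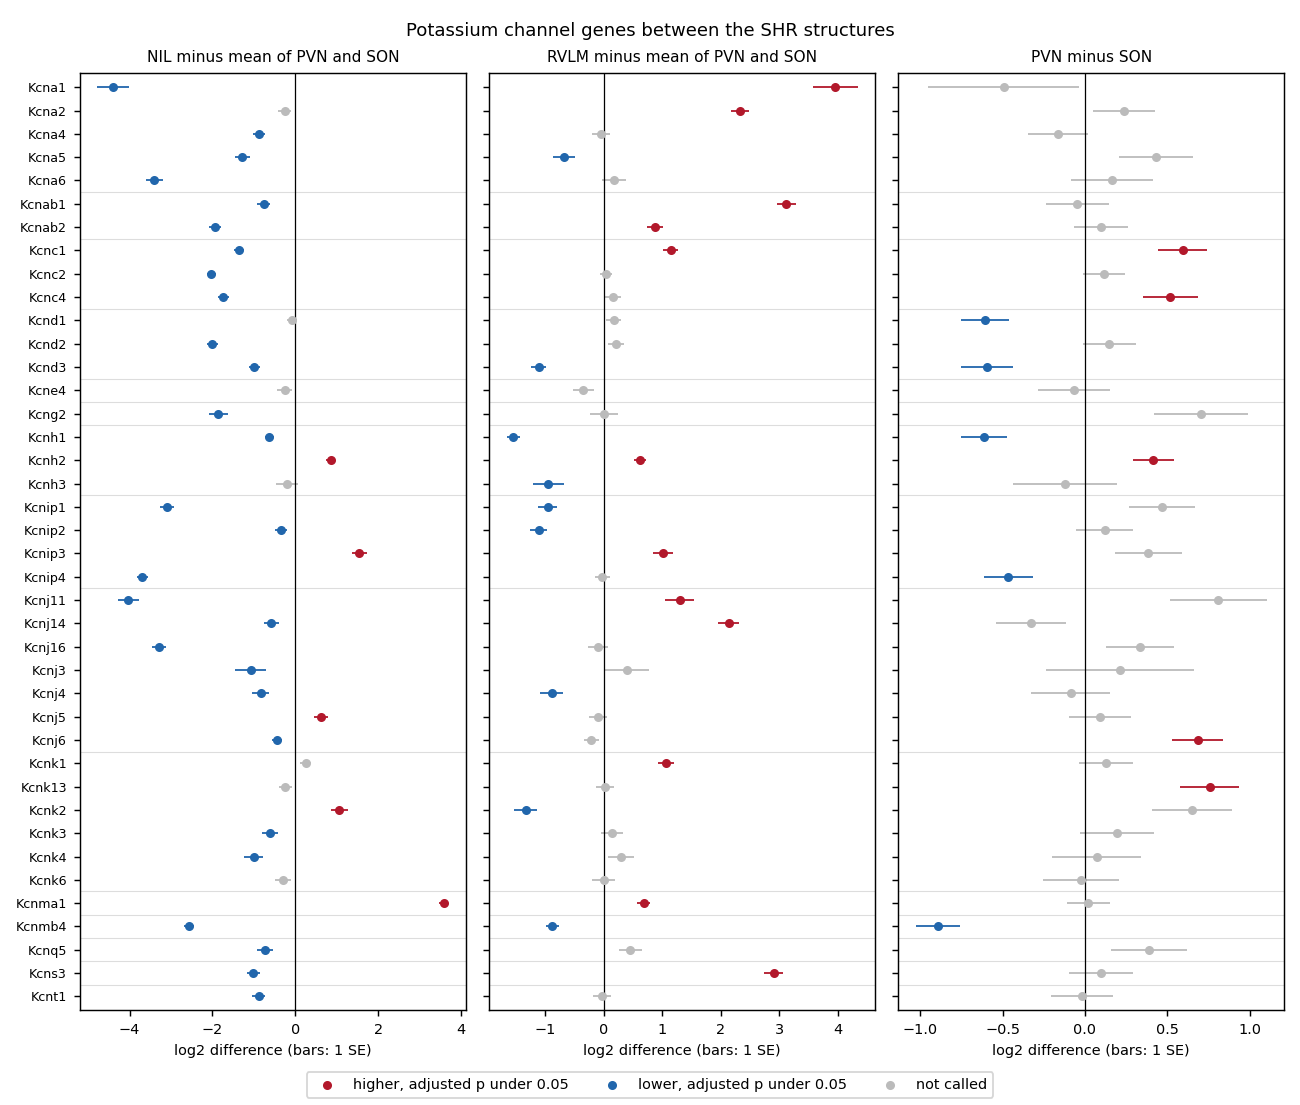
Log2 differences of the 40 tested potassium channel genes in 3 structure contrasts, with bars of 1 SE and genes in order of subfamily; each panel has its own scale. Most NIL points lie left of 0 except Kcnma1 at 3.58 and Kcnip3 at 1.54, whereas the RVLM points spread from -1.54 (Kcnh1) to 3.96 (Kcna1).

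In the NIL, which holds the endings of magnocellular neurons together with melanotrophs and pituicytes, 33 of 40 members were called (82.5%, against 58.9% of all genes). Of these, 28 were lower (70% of those tested, against 28.1% of all genes) and 5 were higher (12.5%, against 30.8%). Without PVN array 3 these counts were again 28 (29.3% of all genes) and 5 (32.7% of all genes), and 62.0% of all genes were called. The median member differed by -0.858 on the log2 scale and the median of all genes by 0.0338. Marker lists moved with this. Of the pan-neuronal markers 10 of 11 were lower in NIL, with a sum of 4805 to 5336 in NIL, against 11030 to 12464 in PVN and 10857 to 11784 in SON. All 8 oligodendrocyte and all 7 tested astrocyte markers were lower. The oligodendrocyte sum was 1299 to 1617 in NIL and 5659 to 6254 in SON. In PVN it was 10266 on array 3 and 3893 to 5003 on the others. All 4 tested melanotroph markers were higher, as were all 5 tested anterior pituitary markers, whose sum was 2946 to 16654 in NIL, against 122 to 238 in PVN and 142 to 199.6 in SON. All 4 tested magnocellular markers were lower, with a list sum of 3256 to 4030 in NIL. Of 4 tested pituicyte markers, 3 were higher and 1 was not called. The pituicyte sum was 2422 to 2742 in NIL and 1286 to 2278 in SON. In PVN it was 2155 on array 3 and 1099 to 1217 on the others. The contrast compares whole tissues and does not follow channel RNA within the same neurons. The part of cell composition in the members' values was not tested.

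The 5 members higher in NIL were Kcnma1, Kcnip3, Kcnk2, Kcnh2 and Kcnj5. Kcnma1 encodes the pore of the BK channel, which opens with calcium and voltage. Kcnma1 intensity was 564, 540.5, 594, 518 and 498 on the NIL arrays and 74.5, 67.8, 68.6, 72.2 and 60.6 on the SHR RVLM arrays. It was 41.3, 48.7, 44.7, 45.2 and 42.6 on the PVN arrays, 44.7, 46.1, 55.6 and 34.6 on the SON arrays and 56.3, 63.6, 47.7, 69.6 and 60.1 on the WKY RVLM arrays. Every NIL pool was far above all the others, and the difference was 3.58 (SE 0.109, adjusted p = 3.16e-17). The other 2 Kcnma1 probe sets were dim and under the filter: without it, one differed by 1.93 (adjusted p = 3.80e-05) and the other by 0.06 (adjusted p = 0.928). Kcnip3 intensity was 274, 206, 269, 258 and 247 in NIL, against 134, 108, 104, 59.3 and 87.0 in PVN and 69.8, 71.0, 74.9 and 81.9 in SON. NIL pools had the highest values among SHR structures, without overlap, and the difference from the nuclei was 1.54 (SE 0.171, adjusted p = 8.04e-08). The second, dim Kcnip3 probe set overlapped between these structures. It had 1.82, 1.45, 12.5, 19.5 and 6.03 in NIL, against 0.813 to 5.94 in PVN and 0.747 to 4.37 in SON.

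Kcnk2 encodes TREK-1, a background pore opened by stretch and lipids. Kcnk2 intensity was 344, 230.2, 315, 366 and 256 on the NIL arrays and 48.9, 46.2, 79.5, 51.7 and 45.5 on the SHR RVLM arrays. It was 199, 149, 241, 168 and 131 on the PVN arrays, 170.0, 110.3, 120.5 and 71.7 on the SON arrays and 72.6, 52.9, 28.9, 49.0 and 43.0 on the WKY RVLM arrays. The lowest NIL pool was just under the highest PVN pool, so these groups overlapped, and the difference was 1.06 (SE 0.201, adjusted p = 0.000105). Kcnh2 encodes the ERG1 pore, known in pituitary cells for its part in the resting current. Kcnh2 intensity was 113, 93.6, 108, 107 and 97.7 on the NIL arrays and 81.8, 90.1, 80.7, 81.3 and 82.3 on the SHR RVLM arrays. It was 59.98, 52.8, 59.0, 73.9 and 81.1 on the PVN arrays, 41.1, 55.1, 52.5 and 50.2 on the SON arrays and 94.0, 93.0, 103, 103 and 89.2 on the WKY RVLM arrays. NIL pools were the highest of the SHR structures, WKY RVLM pools reached into their range, and the NIL difference was 0.85 (SE 0.104, adjusted p = 3.32e-07). Kcnj5 differed by 0.62 (SE 0.158, adjusted p = 0.00212), with means of 65.5 ± 4.19 in NIL, 44.7 ± 14.4 in PVN and 41.4 ± 6.16 in SON.

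By role, 20 of 30 tested pore genes (66.7%), both tested silent subunit genes and 6 of 8 tested auxiliary genes (75%) were lower in NIL. Of all members tested 70% were lower, and of all genes 28.1%. Among the Kv1 genes, Kcna1 (Kv1.1, a pore of axons and endings) fell most. Kcna1 intensity was 3.76, 1.61, 1.89, 2.26 and 1.84 on the NIL arrays and 668, 774, 634, 640.2 and 628 on the SHR RVLM arrays. It was 35.7, 48.0, 129, 35.8 and 9.20 on the PVN arrays, 46.02, 68.9, 46.6 and 56.1 on the SON arrays and 633, 566, 674, 591 and 674 on the WKY RVLM arrays. NIL pools were far below all others, PVN array 3 was the highest of its group, and the difference was -4.40 (SE 0.381, adjusted p = 1.65e-09). Its size depends on the floor of the log scale: it was -1.81 with a pseudocount of 16 and -0.79 with one of 64, still called. Kcna6 intensity was 22.5, 21.2, 29.0, 45.5 and 12.1 on the NIL arrays and 287, 259.6, 218, 295 and 283 on the SHR RVLM arrays. It was 316, 312, 224, 212 and 245 on the PVN arrays, 235, 269.7, 236 and 204 on the SON arrays and 313, 328, 253, 381 and 364 on the WKY RVLM arrays. Every NIL pool had less Kcna6 than any other array, where values lay between 204 and 381, with a difference of -3.40 (SE 0.207, adjusted p = 3.84e-12). Its other 2 probe sets, both dim, did not show this fall and differed by 0.89 and 1.47 without the filter (adjusted p = 0.277 and 0.0242). Kcna5 and Kcna4 fell by 1.28 and 0.88, while Kcna2 differed by -0.26 (adjusted p = 0.168).

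All 3 Kv3 genes, which serve fast repolarisation, were lower in NIL, against 70% of all members tested and 28.1% of all genes. Kcnc2 (Kv3.2) had the highest F of them. Kcnc2 intensity was 146, 108, 139.5, 116 and 128 on the NIL arrays and 449.7, 502, 553, 484 and 506 on the SHR RVLM arrays. It was 534, 536, 559, 475 and 519 on the PVN arrays, 439, 569, 486 and 488 on the SON arrays and 623, 509, 472, 559.8 and 523 on the WKY RVLM arrays. Every NIL pool was below every other array, at -2.03 (SE 0.106, adjusted p = 2.72e-13). Kcnc4 and Kcnc1 differed by -1.74 and -1.36, and the second Kcnc4 probe set by -0.23 (adjusted p = 0.202). Of the Kv4 pores, Kcnd2 had 84.2, 63.3, 78.6, 73.8 and 64.3 in NIL, against 272, 259.9, 469.8, 262 and 265 in PVN and 263, 262, 278 and 289.8 in SON. NIL pools were below every PVN and SON pool, PVN array 3 was the single high array, and the difference was -2.002 (SE 0.133, adjusted p = 1.75e-11) with it and -1.91 without it. Kcnd3 fell by 0.99, and Kcnd1 differed by -0.08 (adjusted p = 0.600).

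The KChIP genes did not move together. Kcnip4 encodes KChIP4, forms of which slow Kv4 inactivation. Kcnip4 intensity was 36.4, 40.3, 30.1, 35.1 and 38.7 on the NIL arrays and 419.8, 421, 439, 458 and 413 on the SHR RVLM arrays. It was 379.6, 357, 543, 354 and 322 on the PVN arrays, 445, 546, 550.2 and 639 on the SON arrays and 450.3, 397, 380.2, 436 and 475 on the WKY RVLM arrays. NIL pools lay far below all the others, and the difference was -3.69 (SE 0.126, adjusted p = 1.77e-16). The second Kcnip4 probe set differed by -3.95 (adjusted p = 9.32e-10). Kcnip1 fell too. Kcnip1 intensity was 32.2, 16.1, 39.9, 38.6 and 25.7 on the NIL arrays and 121, 100.4, 117, 119 and 146 on the SHR RVLM arrays. It was 295, 256, 303, 299 and 268 on the PVN arrays, 182, 230.4, 201 and 226 on the SON arrays and 103, 119.8, 124, 124 and 124 on the WKY RVLM arrays. Values were lowest in NIL and highest in PVN, with no overlap between any of the 4 SHR structures, and the NIL difference was -3.09 (SE 0.167, adjusted p = 4.84e-13). Kcnip2 was near the threshold, at -0.35 (SE 0.145, adjusted p = 0.0456), and lost its call without any 1 of NIL arrays 1, 2, 3 and 5, RVLM arrays 3 and 5, PVN arrays 1 and 2 or SON arrays 1, 2 and 3 (adjusted p = 0.0510 to 0.114). Kcnip3 was higher, as given above. Over the 9 genes of the Kv4 list, 1 was higher, 7 were lower and Kcnd1 was not called, with Dpp6 and Dpp10 at -1.20 and -1.02.

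Kcnmb4 encodes the β4 subunit that makes neuronal BK channels slow and resistant to toxins. Kcnmb4 intensity was 94.9, 84.9, 68.6, 71.3 and 78.9 on the NIL arrays and 251, 229.7, 289, 236 and 202 on the SHR RVLM arrays. It was 299, 343, 399, 297 and 344 on the PVN arrays, 663, 619, 673 and 580.1 on the SON arrays and 264, 313, 289, 233 and 229.8 on the WKY RVLM arrays. NIL was lowest and SON highest, with no overlap between any pair of NIL, PVN and SON. The NIL difference was -2.56 (SE 0.112, adjusted p = 1.35e-14), opposite in direction to that of the BK pore gene Kcnma1 on the same arrays.

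Among inward rectifiers, 6 of 7 tested were lower in NIL (85.7%, against 70% of all members tested and 28.1% of all genes) and Kcnj5 was higher. Kcnj11 encodes Kir6.2, the pore of the ATP-sensitive channel. Kcnj11 intensity was 4.31, 3.25, 3.03, 9.30 and 2.61 on the NIL arrays and 199.6, 179.8, 108, 159.5 and 126 on the SHR RVLM arrays. It was 109, 78.7, 105, 65.3 and 71.2 on the PVN arrays, 41.3, 63.3, 45.5 and 47.9 on the SON arrays and 192, 174, 198, 147 and 117 on the WKY RVLM arrays. NIL pools reached 9.30 at most, SON and PVN were intermediate and RVLM had the highest mean although its lowest pool was just under the highest PVN pool, with a NIL difference of -4.03 (SE 0.245, adjusted p = 3.87e-12). That size depends on the floor of the log scale, at -2.01 with a pseudocount of 16 and -0.93 with one of 64, still called. A second Kcnj11 probe set fell less, by 0.80 (adjusted p = 0.00398), and the remaining probe set differed by -0.57 (adjusted p = 0.0694). The mean of the 3 was -1.80. Abcc8 and Abcc9, which encode the sulfonylurea receptors of this channel, differed by -0.57 (called) and -0.51 (adjusted p = 0.0512), and both were called without PVN array 3. Kcnj16, whose Kir5.1 protein joins glial Kir4.1 channels, fell by 3.29 (adjusted p = 3.23e-13) and averaged 23.6 ± 8.07 in NIL, 241 ± 31.4 in PVN and 194 ± 23.6 in SON (SD, n = 5, 5 and 4). Of the glial potassium handling list, 7 of 8 tested genes were lower too, Aqp4 by 3.43. Kcnj3 fell by 1.07, which was -0.55 and not called without NIL array 2 (adjusted p = 0.0904). All 5 measured genes of the GIRK regulator list were lower in NIL. The other 9 members lower in NIL were Kcnab2 (-1.94), Kcns3 (-1.02), Kcnk4 (-1.01), Kcnj4 (-0.84), Kcnab1 (-0.77), Kcnh1 (-0.63), Kcnk3 (-0.61), Kcnj14 (-0.58) and Kcnj6 (-0.44). With a pseudocount of 16 the NIL differences of Kcng2, Kcnj3, Kcnk4 and Kcns3 were -1.05, -0.54, -0.62 and -0.58, still called. Kcnj6 was not called as the mean of its probe sets (-0.36, adjusted p = 0.114).

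Kcng2 encodes Kv6.2, a silent subunit that alters other voltage-gated pores. Kcng2 intensity was 7.37, 14.6, 13.4, 8.89 and 12.7 on the NIL arrays and 38.5, 59.4, 40.6, 30.6 and 26.2 on the SHR RVLM arrays. It was 64.4, 50.1, 47.1, 32.7 and 59.6 on the PVN arrays, 20.9, 29.3, 34.7 and 43.3 on the SON arrays and 39.9, 53.8, 36.9, 37.0 and 35.3 on the WKY RVLM arrays. It fell by 1.86 in NIL (adjusted p = 7.76e-07) and every NIL pool was below every other array. Kcnt1 encodes Slack, a pore opened by sodium. Kcnt1 intensity was 44.5, 35.4, 45.6, 26.6 and 29.5 on the NIL arrays and 50.4, 82.3, 58.0, 57.3 and 56.4 on the SHR RVLM arrays. It was 47.0, 74.5, 60.6, 70.6 and 66.9 on the PVN arrays, 83.3, 61.4, 60.2 and 58.7 on the SON arrays and 60.01, 57.5, 69.7, 45.8 and 65.6 on the WKY RVLM arrays. It fell by 0.88 in NIL (adjusted p = 5.86e-05) with every NIL pool below every other array, and the other groups overlapped.

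Kcnq5 encodes Kv7.5, a pore of the M-type current. Kcnq5 intensity was 43.9, 28.5, 49.6, 36.2 and 20.01 on the NIL arrays and 72.3, 99.1, 70.7, 60.2 and 66.8 on the SHR RVLM arrays. It was 56.7, 63.9, 66.4, 58.9 and 68.6 on the PVN arrays, 41.0, 77.0, 42.7 and 42.3 on the SON arrays and 82.0, 71.4, 44.6, 76.6 and 55.1 on the WKY RVLM arrays. Its NIL difference was -0.73 (SE 0.193, adjusted p = 0.00270), but a second probe set of the gene differed by 0.68 (adjusted p = 0.104) and the mean of both by -0.03 (adjusted p = 0.921), so the fall rests on 1 probe set. Kcne4 intensity was 40.9, 41.5, 40.7, 40.2 and 48.8 on the NIL arrays and 42.2, 52.9, 36.3, 33.2 and 27.5 on the SHR RVLM arrays. It was 29.7, 38.9, 71.1, 76.7 and 41.6 on the PVN arrays, 57.3, 52.5, 42.2 and 55.5 on the SON arrays and 53.1, 55.1, 37.0, 30.8 and 25.3 on the WKY RVLM arrays. Kcne4, a single-span auxiliary subunit, overlapped between all groups and was not called in any contrast.

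Of the 75 members, 32 were under the filter in both fits, and Kcnab3, Kcnj8 and Kcnq3 were tested between the strains alone. Of these 32, 30 had no group mean above 31.4: Kcna3, Kcnb2, Kcne1, Kcne2, Kcne3, Kcng3, Kcnh4, Kcnh5, Kcnh7, Kcnh8, Kcnj1, Kcnj10, Kcnj12, Kcnj13, Kcnj15, Kcnj2, Kcnj9, Kcnk10, Kcnk15, Kcnk5, Kcnk9, Kcnmb1, Kcnn1, Kcnn3, Kcnn4, Kcnq1, Kcns1, Kcns2, Kcnv1 and Kcnv2. Kcnh6 and Kcnk12 were above this in NIL, and they and Kcnn4 were singled out after their values were seen. Kcnh6, the ERG2 pore, had 109.5, 108, 83.4, 108 and 98.5 in NIL, against 32.3, 31.8, 2.15, 3.57 and 27.1 in PVN and 3.76, 5.53, 30.1 and 1.87 in SON. Kcnn4, the intermediate-conductance calcium-activated pore, had 21.6, 28.2, 23.4, 26.0 and 26.5 in NIL, against 0.580, 0.443, 7.25, 1.45 and 0.633 in PVN and 5.27, 1.16, 0.721 and 2.49 in SON. Kcnk12, the THIK-2 subunit, averaged 41.5 ± 7.20 in NIL, 13.0 ± 10.7 in PVN and 5.14 ± 0.881 in SON. For all 3 each NIL pool was above each PVN and SON pool, and no fold is given because the PVN and SON values lie near the low end of the scale. With no filter, 41 of all 75 members were called in this contrast (11 higher, 30 lower), against 48.1% of all genes (25.2% higher and 23.0% lower).

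**Figure D4:**
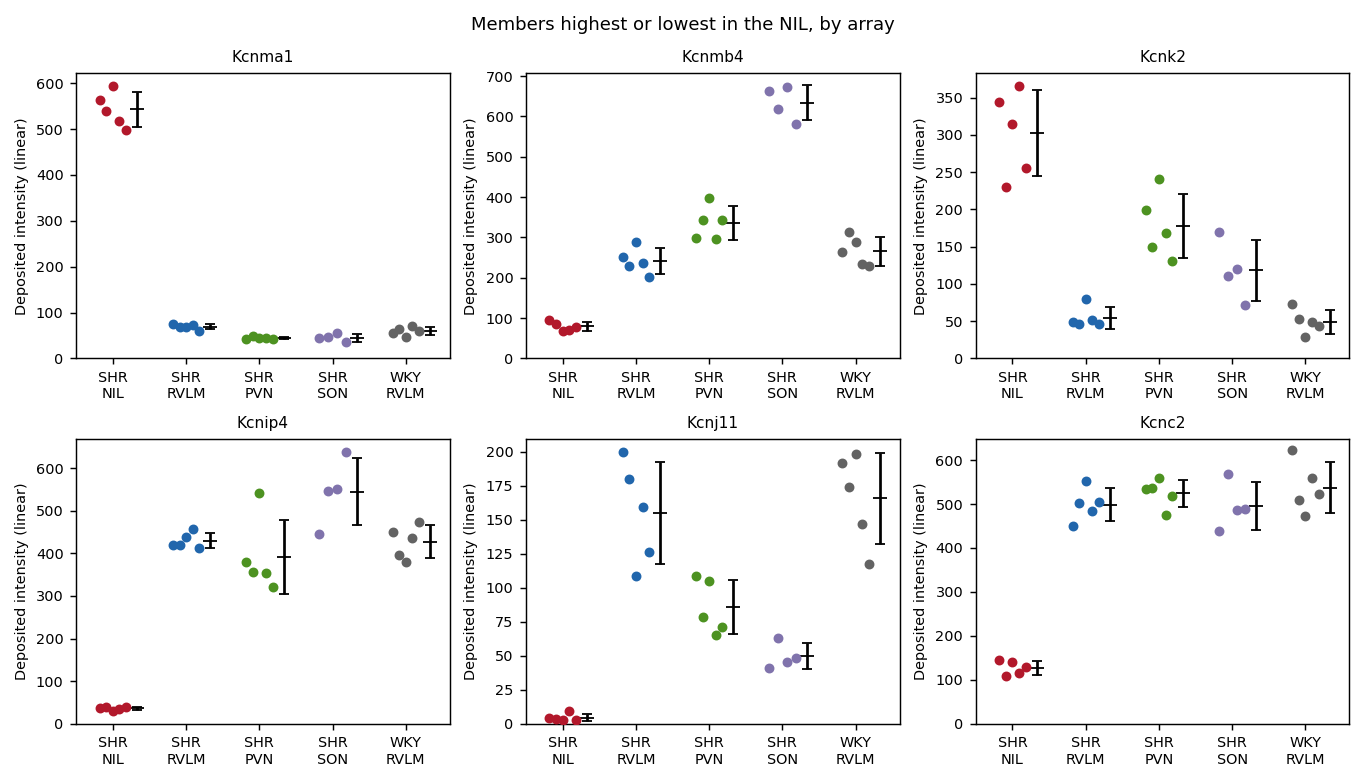
Deposited intensity (linear axes from 0) of 6 members on every array, in the order NIL, RVLM, PVN and SON of SHR and RVLM of WKY; points are pools, and the bar beside them is the mean with 1 SD (n = 5, SON 4). Kcnma1 and Kcnk2 are highest in NIL and the other 4 lowest there, and Kcnmb4 is highest in SON at 634 ± 42.8.

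In the RVLM, 21 of 40 members were called against the mean of PVN and SON (52.5%, against 50.6% of all genes), a share near the background. Of these, 12 were higher (30%, against 21.4% of all genes) and 9 lower (22.5%, against 29.2%). Without PVN array 3, 23 were called, 14 higher and 9 lower, against 53.6% of all genes (22.8% higher and 30.8% lower). The median member differed by 0.0894 and the median of all genes by -0.0765. The 4 largest rises were in the Kv1 pore genes Kcna1 and Kcna2, the Kvβ1 gene Kcnab1 and the silent subunit gene Kcns3. In the same contrast 9 of 11 pan-neuronal and all 8 oligodendrocyte markers were higher, with and without PVN array 3. Of 7 astrocyte markers, 3 were higher and 1 lower (5 and 1 without that array). Of 8 meninges and choroid plexus markers, 4 were lower (6 lower and 1 higher without it). The pan-neuronal sum was 26629 to 32163 in SHR RVLM, against 11030 to 12464 in PVN and 10857 to 11784 in SON. The oligodendrocyte sum was 16561 to 21092 in SHR RVLM and 5659 to 6254 in SON. In PVN it was 10266 on array 3 and 3893 to 5003 on the others. The part of these lists in the members' values was not tested.

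Kcna1, whose values on every array stand above, was 628 to 774 on the SHR RVLM arrays and 566 to 674 on the WKY RVLM arrays, and no higher than 129 on any PVN or SON array. The difference from the nuclei was 3.96 (SE 0.381, adjusted p = 2.10e-08). Kcna2 encodes Kv1.2, which assembles with Kv1.1 along myelinated axons. Kcna2 intensity was 118, 169.7, 145, 154 and 143 on the NIL arrays and 813, 847, 830.4, 821 and 775 on the SHR RVLM arrays. It was 212, 172, 287, 136 and 143 on the PVN arrays, 146, 154, 177 and 156 on the SON arrays and 729.9, 739.7, 683, 860.0 and 814 on the WKY RVLM arrays. RVLM pools of both strains were all above every other array, at 2.33 (SE 0.156, adjusted p = 8.75e-11). The second Kcna2 probe set, with means of 35.2 ± 9.71 in SHR RVLM, 33.2 ± 2.49 in PVN and 40.1 ± 10.3 in SON, did not show this and differed by -0.01 (adjusted p = 0.979).

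Kcnab1 encodes the Kvβ1 subunit, which speeds inactivation of Kv1 channels. Kcnab1 intensity was 76.7, 38.9, 64.8, 93.5 and 52.7 on the NIL arrays and 920.1, 839, 837, 883 and 886 on the SHR RVLM arrays. It was 128, 100.4, 108, 92.0 and 85.7 on the PVN arrays, 101, 116, 109 and 104 on the SON arrays and 853, 773, 789.6, 860.2 and 969 on the WKY RVLM arrays. All 10 RVLM arrays lay between 773 and 969 and all others between 38.9 and 128, and the difference was 3.13 (SE 0.160, adjusted p = 1.42e-12). Kcnab2, the Kvβ2 subunit, was higher by 0.87 (adjusted p = 1.88e-05) on its brightest probe set and lower on a dim one, at -0.78 (adjusted p = 0.00731), so its direction depends on the probe set. The mean of both was 0.05 (adjusted p = 0.787). Kcns3 encodes Kv9.3, a silent subunit that alters Kv2 channels. Kcns3 intensity was 17.5, 13.3, 11.6, 18.6 and 15.97 on the NIL arrays and 226, 194, 200.1, 260.3 and 204 on the SHR RVLM arrays. It was 35.7, 35.1, 34.7, 28.4 and 22.5 on the PVN arrays, 29.5, 27.0, 32.1 and 29.1 on the SON arrays and 259, 219, 190.1, 254 and 187 on the WKY RVLM arrays. RVLM pools were at least 187 and the others at most 35.7, a difference of 2.91 (SE 0.163, adjusted p = 6.31e-12). Of the 6 genes of the Kv1 axonal complex list, whose products are found with these channels on axons, Adam22 (0.34) and Cntn2 (0.90) were higher in RVLM and 4 were not called. Without PVN array 3, 3 were higher and 1 lower.

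The other 8 members higher in RVLM were Kcnj14 (2.14), Kcnj11 (1.30), Kcnc1 (1.15), Kcnk1 (1.06), Kcnip3 (1.02), Kcnab2 (0.87), Kcnma1 (0.69) and Kcnh2 (0.62), with the log2 difference in parentheses. Kcnj14 encodes the Kir2.4 rectifier and averaged 205 ± 27.4 in SHR RVLM, 43.4 ± 8.81 in PVN and 57.7 ± 23.0 in SON. Kcnc1 encodes Kv3.1, a pore of fast-spiking neurons, and averaged 499.7 ± 62.5 in SHR RVLM, 288 ± 40.1 in PVN and 197 ± 47.9 in SON. Kcnk1 encodes TWIK-1. For Kcnj11 the 2 other probe sets differed by 0.07 and 0.51 and were not called. Abcc9 was higher, at 0.99 (adjusted p = 0.000728), while Abcc8 differed by 0.05 (adjusted p = 0.842). Kcnip3 was higher in SHR RVLM than in the SHR nuclei although it was lower there than in WKY RVLM.

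The members lower in RVLM began with Kcnh1, the EAG1 pore. Kcnh1 intensity was 63.2, 62.1, 73.7, 71.9 and 69.5 on the NIL arrays and 32.2, 46.4, 33.1, 32.4 and 27.4 on the SHR RVLM arrays. It was 62.4, 80.0, 100.3, 88.5 and 85.9 on the PVN arrays, 126, 112, 149 and 131 on the SON arrays and 26.9, 31.7, 38.7, 34.8 and 22.3 on the WKY RVLM arrays. The highest RVLM pool of either strain had 46.4 and the lowest SON pool 112, and the difference was -1.54 (SE 0.117, adjusted p = 5.83e-10). Kcnd3 encodes Kv4.3. Kcnd3 intensity was 179, 128, 143, 162 and 126 on the NIL arrays and 119, 145, 144, 128 and 103 on the SHR RVLM arrays. It was 250.05, 219, 289.9, 187 and 221 on the PVN arrays, 310.1, 337, 405 and 376 on the SON arrays and 137, 129.5, 108, 152 and 131 on the WKY RVLM arrays. RVLM and NIL pools were low and SON pools highest, with an RVLM difference of -1.11 (SE 0.131, adjusted p = 4.40e-07).

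The KChIP genes Kcnip2 and Kcnip1 were also lower. Kcnip2 intensity was 79.2, 95.6, 88.2, 109.8 and 94.1 on the NIL arrays and 45.6, 46.3, 52.1, 63.1 and 51.9 on the SHR RVLM arrays. It was 155, 143, 91.3, 99.7 and 122 on the PVN arrays, 125, 109.8, 117 and 99.5 on the SON arrays and 38.0, 28.2, 33.5, 40.8 and 27.9 on the WKY RVLM arrays. The RVLM pools of both strains were below every other array, at -1.11 (SE 0.145, adjusted p = 1.80e-06). Kcnip1 differed by -0.96 (SE 0.167, adjusted p = 6.28e-05), with values given above. The remaining falls were Kcnk2 (-1.33), Kcnh3 (-0.94), Kcnj4 (-0.89), Kcnmb4 (-0.88) and Kcna5 (-0.68). Kcnh3, an ELK pore, differed by -0.54 (adjusted p = 0.0102) without RVLM array 1. Kcnd2 was not called, at 0.21 (SE 0.133, adjusted p = 0.187), but was called without PVN array 3, its single high PVN array, at 0.31 (adjusted p = 0.00812). Kcnq5 was near the threshold, at 0.46 (SE 0.193, adjusted p = 0.0533) with that array and 0.48 (adjusted p = 0.0425, called) without it. Its value of 66.4 on PVN array 3 lay within the 56.7 to 68.6 of the other PVN arrays. Kcnip4 was at -0.02 (adjusted p = 0.912). Over the Kv4 list, 1 gene was higher and 4 were lower, and 2 were higher and 4 lower without PVN array 3.

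**Figure D5:**
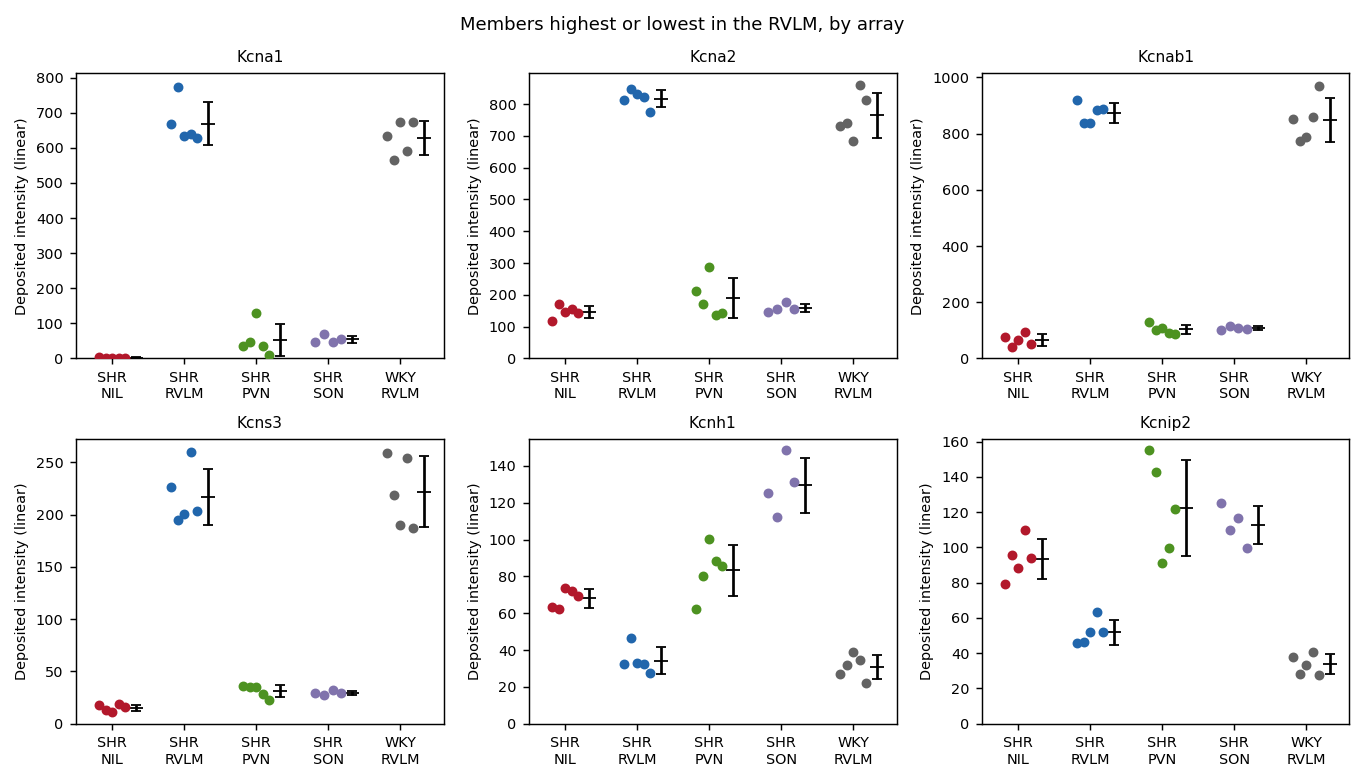
Deposited intensity (linear axes from 0) of 6 members on every array, in the order NIL, RVLM, PVN and SON of SHR and RVLM of WKY; points are pools, and the bar beside them is the mean with 1 SD (n = 5, SON 4). Kcna1, Kcna2, Kcnab1 and Kcns3 are high on all 10 RVLM arrays, Kcnh1 and Kcnip2 are low there, and PVN array 3 is the highest PVN point for Kcna1 and Kcna2.

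The PVN and SON share magnocellular neurons and were compared with each other. Of 40 members tested, 10 were called (25%, against 16.1% of all genes), 5 higher in PVN (12.5%, against 9.02%) and 5 lower (12.5%, against 7.12%). Without PVN array 3 the count was again 10, 5 in each direction, against 23.0% of all genes (11.6% higher and 11.4% lower). The median member differed by 0.117 and the median of all genes by 0.0107. The count was 5 without SON array 3 and 5 when the fit held the PVN and SON arrays alone, and 4 of the 10 calls (Kcnmb4, Kcnh1, Kcnd1 and Kcnk13) held under every alternative that tested them. Meninges and choroid plexus markers differed as well, with 6 of 8 lower in PVN (sum 734 to 8676 in PVN and 6686 to 9858 in SON), while 2 of 11 pan-neuronal markers were higher in PVN. Of the astrocyte markers, 3 of 7 were lower in PVN (Gfap -1.11, Aldh1l1 -2.02 and Aqp4 -0.62), and again 3 of 7 without PVN array 3. Of 8 oligodendrocyte markers, 0 were called with that array and 3 were lower in PVN without it. Their part in the members' values was not tested.

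Kcnmb4 was lower in PVN by 0.89 (SE 0.134, adjusted p = 0.000202), at 336 ± 41.7 in PVN and 634 ± 42.8 in SON (SD, n = 5 and 4). The pore gene Kcnma1 differed by 0.02 (adjusted p = 0.937), at 44.5 ± 2.82 in PVN and 45.3 ± 8.59 in SON, although a dim Kcnma1 probe set was lower in PVN without the filter (-1.92, adjusted p = 0.00350). Kcnh1 was lower in PVN, at -0.61 (SE 0.140, adjusted p = 0.00548). Kcnd1 encodes Kv4.1. Kcnd1 intensity was 122, 99.9, 91.2, 163 and 118 on the NIL arrays and 164, 152, 123, 104 and 116 on the SHR RVLM arrays. It was 83.1, 108, 92.7, 112 and 91.0 on the PVN arrays, 116, 163, 166 and 163 on the SON arrays and 142, 131, 132, 113 and 131 on the WKY RVLM arrays. PVN pools lay below SON pools, and the difference was -0.61 (SE 0.148, adjusted p = 0.00843). Kcnd3 differed by -0.59 (SE 0.157, adjusted p = 0.0144), and by -0.53 (adjusted p = 0.0588) without SON array 3. Kcnip4 differed by -0.46 (SE 0.151, adjusted p = 0.0415), and by -0.60 (adjusted p = 0.00139) without PVN array 3. It lost its call without any 1 of PVN arrays 2, 4 and 5 or SON arrays 2, 3 and 4 (adjusted p = 0.0819 to 0.138).

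Kcnj6 and Kcnc4 were higher in PVN without overlap. Kcnj6 encodes GIRK2, the rectifier opened by G proteins. Kcnj6 intensity was 50.7, 44.0, 41.3, 57.3 and 60.2 on the NIL arrays and 45.6, 69.5, 52.1, 55.7 and 56.0 on the SHR RVLM arrays. It was 87.6, 75.3, 84.0, 84.8 and 88.5 on the PVN arrays, 43.3, 62.6, 59.6 and 49.9 on the SON arrays and 48.1, 57.4, 40.8, 54.4 and 49.2 on the WKY RVLM arrays. Each PVN pool exceeded each SON pool, at 0.68 (SE 0.154, adjusted p = 0.00505). The second kept probe set differed by -0.04 (adjusted p = 0.964), and the mean of both was 0.32 (adjusted p = 0.370). Kcnc4 intensity was 41.4, 52.2, 43.4, 27.6 and 44.8 on the NIL arrays and 137, 152, 154, 147 and 126 on the SHR RVLM arrays. It was 183, 156, 135, 195 and 135 on the PVN arrays, 111, 116, 115 and 110.3 on the SON arrays and 158, 132, 158, 177 and 136 on the WKY RVLM arrays. Kcnc4 (Kv3.4) was higher in PVN by 0.52 (adjusted p = 0.0398), and lost its call without any 1 of PVN arrays 1, 2 and 4 or of the 4 SON arrays (adjusted p = 0.0654 to 0.1002). The mean of its probe sets differed by 0.20 (adjusted p = 0.228).

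Kcnk13, which encodes THIK-1, was higher in PVN at 0.76 (SE 0.179, adjusted p = 0.00687), with means of 60.4 ± 15.3 in PVN and 35.6 ± 4.01 in SON and overlapping pools. Kcnc1 was higher by 0.59 (adjusted p = 0.00983), and by 0.50 (adjusted p = 0.0516) without SON array 3. Kcnh2 was higher by 0.41 (adjusted p = 0.0287), and not called without any 1 of PVN arrays 1 and 5 or SON arrays 1, 3 and 4 (adjusted p up to 0.106). Kcnd2 did not pass between the nuclei, at 0.15 (adjusted p = 0.582) with PVN array 3 and -0.03 (adjusted p = 0.878) without it. Within the Kv4 list the partners Dpp6 and Dpp10 were higher in PVN (0.48 and 0.62), whereas Kcnd1, Kcnd3 and Kcnip4 were lower.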

How the data were processed

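Messenger RNA of 24 pools of rat tissue was measured on Affymetrix arrays, 1 array per pool of 5 male rats. Per the labels' protocols, tissue was kept in RNAlater and RNA was purified with QIAzol and RNeasy. What the authors deposited is a linear intensity for each probe set, made with GCOS 1.2 per the submitters' processing notes. The sources used here do not give GCOS settings or calls of presence. The 2% trimmed mean of the deposited intensity lay between 99.6 and 99.8 on every array, so the arrays had been brought to a common level before deposit. The number of arrays limits the precision.

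Groups follow the labels. Values were taken to log2 without a pseudocount, and array medians were made equal. Probe sets with a mean log2 value above the 40th percentile of a fit were kept, 18625 in each. Differences were tested with lmFit and eBayes (intensity trend) of limma 3.58.1 in R 4.3.3, with Benjamini-Hochberg adjustment over all kept probe sets. The strain fit used the 10 RVLM arrays and the structure fits the 19 SHR arrays. Gene counts use the probe set chosen for each gene. SE is that of the moderated fit, and means and SDs are of the deposited intensity. Gene names came from the array annotation, which gave 20826 of 31042 non-control probe sets a single gene, 436 several and 9780 none.

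The members and gene lists were chosen with earlier results of these data known. Values on every array are given for Kcnd2, for members called between the strains, for the 4 largest rises and falls of each structure contrast among called members whose groups did not overlap, and for the member of each subfamily with the highest F. Alternatives were the deposited scale, quantile normalization, pseudocounts of 16 and 64, a filter raised to the 60th percentile or dropped, array weights, eBayes without the trend, a replicate block, the mean of a gene's probe sets, other arrays in the fit and each array left out. The fits were tested on simulated data.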

Additional observations from a re-analysis of the deposited data

Results flagged for a closer look

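Dixon's test, at its 95% critical value, was run on each group of arrays for the members whose values on every array were given. Of 125 groups of 4 or 5 arrays tested, 14 held an array that stood apart, and chance alone sets apart about 5% of groups. SHR RVLM array 2 was high for 4 members: Kcna1 at 774 (others 628 to 668), Kcnd2 at 366 (others 294 to 312), Kcnh2 at 90.1 (others 80.7 to 82.3) and Kcnt1 at 82.3 (others 50.4 to 58.0). PVN array 3 was high for Kcnd2 at 469.8 (others 259.9 to 272) and Kcnip4 at 543 (others 322 to 379.6). SON array 1 was low for Kcnd1 at 116 (others 163 to 166) and high for Kcnt1 at 83.3 (others 58.7 to 61.4), and SON array 2 was high for Kcnq5 at 77.0 (others 41.0 to 42.7). In NIL, array 5 was high for Kcne4 at 48.8 (others 40.2 to 41.5) and array 4 for Kcnj11 at 9.30 (others 2.61 to 4.31). SHR RVLM array 3 was high for Kcnk2 at 79.5 (others 45.5 to 51.7). In WKY RVLM, array 2 was high for Kcng2 at 53.8 (others 35.3 to 39.9) and array 1 low for Kcnip1 at 103 (others 119.8 to 124). Without SHR RVLM array 2 the strain difference of Kcnd2 was -0.69 (limma adjusted p = 6.54e-05), and its NIL difference without PVN array 3 was -1.91.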

How the results depend on the processing

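Both strain calls held under all 21 alternatives, with log2 differences of -0.82 to -0.56 for Kcnd2 and -1.22 to -0.88 for Kcnip3, and array weights added Kcnip2 (adjusted p = 0.0480). Under every alternative that tested them, 29 of 33 calls in NIL, 20 of 21 in RVLM and 4 of 10 in PVN minus SON were kept, and no call changed direction. Leaving out each array gave 2 calls throughout for the strains, 5 to 11 in PVN minus SON, 31 to 34 in NIL, 21 to 23 in RVLM and 37 to 39 in the F test. PVN minus SON had 5 calls without SON array 3 and 5 with only PVN and SON arrays in the fit, where fewer arrays estimate the spread. With the filter at the 60th percentile, which tests fewer members, NIL had 19 calls and the F test 22. Of the 66 called results, a pseudocount of 64 moved 43 by over 1.5 times and a pseudocount of 16 moved 6. Same-numbered arrays did not deviate together, with correlations of -0.0858 to 0.106 between the strains and -0.108 to 0.172 between structures, and 3 of 10 and 11 of 54 comparisons ranked the own number first. A replicate block gave 2 calls between the strains, 10 in PVN minus SON, 32 in NIL, 22 in RVLM and 38 in the F test. Dim probe sets limit what can be said of the 32 members under the filter.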
